A study of Mus musculus with 29 samples.

Results

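The 10 genes described here are protein-coding genes of the mouse mitochondrial chromosome, chosen by name: mt-Nd1, mt-Nd2, mt-Nd4, mt-Nd5, mt-Nd6, mt-Cytb, mt-Co1, mt-Co2, mt-Co3 and mt-Atp6. They are 10 of 18240 gene rows in the expression table and 10 of its 13 mitochondrial protein gene rows. All 10 passed the filter on low values. The data are bulk RNA sequencing of prefrontal cortex from C57BL/6J mice at postnatal day 40, made with a stranded poly(A) kit. Mice were wild type (WT) or carried 1 K228E copy of Tbr1 (HT, heterozygous); Tbr1 is a transcription factor gene needed for the deep layers of the cortex. The groups were WT vehicle (4 females, 4 males), HT vehicle (3 females, 3 males), HT fluoxetine (4 females, 4 males) and HT lithium (3 females, 4 males). Fluoxetine is a serotonin reuptake inhibitor and lithium a mood stabiliser. WT mice received vehicle only. Dose, route and duration of treatment are not in the labels, which give 1 batch for all 29 libraries. The labels do not say whether each library is a separate animal, so p-values measure the spread between these libraries.

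Each mitochondrion holds copies of a small circular chromosome whose protein genes encode core subunits of the respiratory chain and ATP synthase; the remaining subunits are made from nuclear genes. The circle is read from both strands as long RNAs that are then cut into single messages. Of these genes mt-Nd6 alone is read from the light-strand promoter, and the other 9 come from the heavy-strand promoter. In human cells the ND6 message is also the one largely without a poly(A) tail, and the protein pair LRPPRC and SLIRP steadies the other messages but not ND6.

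The opening bases of mt-Nd6, its neighbour mt-Nd5 and mt-Cytb are shown because they make the strand difference visible; each G is in capitals. Over these 90 bases mt-Nd6 (MT:13981-14070, minus strand) has 17 G and 8 C, mt-Nd5 (MT:11742-11831, plus strand) has 0 G and 25 C, and mt-Cytb (MT:14145-14234, plus strand) has 5 G and 26 C. Sequences are GENCODE transcripts on GRCm38, read 5′ to 3′.
mt-Nd6: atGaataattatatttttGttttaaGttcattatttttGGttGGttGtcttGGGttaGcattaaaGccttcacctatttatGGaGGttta
mt-Nd5: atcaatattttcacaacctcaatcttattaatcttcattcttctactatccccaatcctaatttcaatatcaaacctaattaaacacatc
mt-Cytb: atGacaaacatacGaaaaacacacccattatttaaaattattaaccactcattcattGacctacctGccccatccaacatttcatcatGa
Over the whole transcript G made up 28.1% of mt-Nd6 and 16.1% or less of the other 9, with mt-Co1 the highest of these. mt-Nd6 (ENSMUSG00000064368) lies at MT:13552-14070 and mt-Nd5 (ENSMUSG00000064367) at MT:11742-13565. mt-Nd5 and mt-Nd6 overlap by 14 bases on opposite strands. The strand setting of the authors' counting is not stated in the sources used here; without one, reads of mt-Nd6 and of the RNA opposite it could not be told apart.

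Several members also have near-identical copies in the nuclear genome, on the minus strand of chromosome 1, and these copies have rows of their own in the table. Gm28661 (chr1:24614885-24615565), Gm28437 (chr1:24613189-24613971) and Gm10925 (chr1:24613974-24614651) match mt-Co2, mt-Co3 and mt-Atp6 with 0 mismatches over the whole copy. Gm29216 (chr1:24615706-24616197) matches bases 1054 to 1545 of mt-Co1 with 6 mismatches, all near its 5′ end. The stretch that holds 6 of 6 mismatches is shown with the differing bases in capitals, since beyond it the sequence cannot assign a read. It covers MT:6381-6440 (plus strand) and chr1:24616138-24616197 (minus strand).
mt-Co1: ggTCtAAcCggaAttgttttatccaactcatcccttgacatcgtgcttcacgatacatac
Gm29216: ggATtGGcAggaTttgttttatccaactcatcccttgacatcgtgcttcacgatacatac
Counted from 1 at the 5′ end of the mt-Co1 transcript, with the base of mt-Co1 first, the substitutions are T1056A, C1057T, A1059G, A1060G, C1062A and A1066T. Values of mt-Co2, mt-Co3, mt-Atp6 and, in part, mt-Co1 are therefore uncertain as deposited. They are given below also as the sum of gene and copy.

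Values are read counts divided by 1 size factor per library, called normalised read counts here. Libraries held 22.81 M to 31.71 M reads, so counting error is small for these genes: mt-Nd6, the lowest, had between 535 and 1632 reads per library. The members took 4.05% to 6.74% of all reads, or 5.04% ± 0.535 (SD, n = 29). The mean share was highest in WT vehicle (5.39% ± 0.696) and lowest in HT vehicle (4.71% ± 0.555). It was 5.04% ± 0.336 for HT fluoxetine and 4.90% ± 0.296 for HT lithium, and the groups overlapped. In bulk tissue, fewer cells of a type and less RNA per cell cannot be told apart. Counting the copies, the share over all libraries was 6.99% ± 0.701. Cortical markers were present in every library, with Slc17a7 at 32387 or more and Camk2a at 75592 or more. Tbr1 itself lay at 2866 ± 445 in WT vehicle and at 4067 ± 392 in HT vehicle (SD). In 8 libraries (HT fluoxetine females 1 and 2 and males 1 and 2, HT lithium female 2, WT vehicle females 1 and 3 and male 3) the mean of striatal or of olfactory markers was more than 1 (log2) above the median library.

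Per kilobase of transcript, with copies added, mt-Co1 was the highest member at 432481 ± 40261 (SD, n = 29). The other complex IV genes, mt-Co2 at 323429 ± 32949 and mt-Co3 at 289307 ± 23101, came next. They were followed by mt-Atp6, a proton-channel subunit of ATP synthase, at 239393 ± 32756, and mt-Cytb, the cytochrome b of complex III, at 185403 ± 16381. The complex I genes were lower, from mt-Nd1 (139273 ± 18431) through mt-Nd4 (100260 ± 12915) and mt-Nd2 (82958 ± 10739) to mt-Nd5 (61632 ± 6614). Last came mt-Nd6 at 2420 ± 434, also a complex I subunit. In this order each member was above the next in 29 of 29 libraries. The level of mt-Nd5 was 25.5 times and that of mt-Co1 179 times that of mt-Nd6. These are levels of reads captured with a poly(A) kit. The part of poly(A) capture in the low level of mt-Nd6 was not tested. Taken as deposited, without copies, mt-Co3 (33660 ± 13527) and mt-Atp6 (20124 ± 8493) would stand below mt-Nd5 on this scale.

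**Figure D1:**
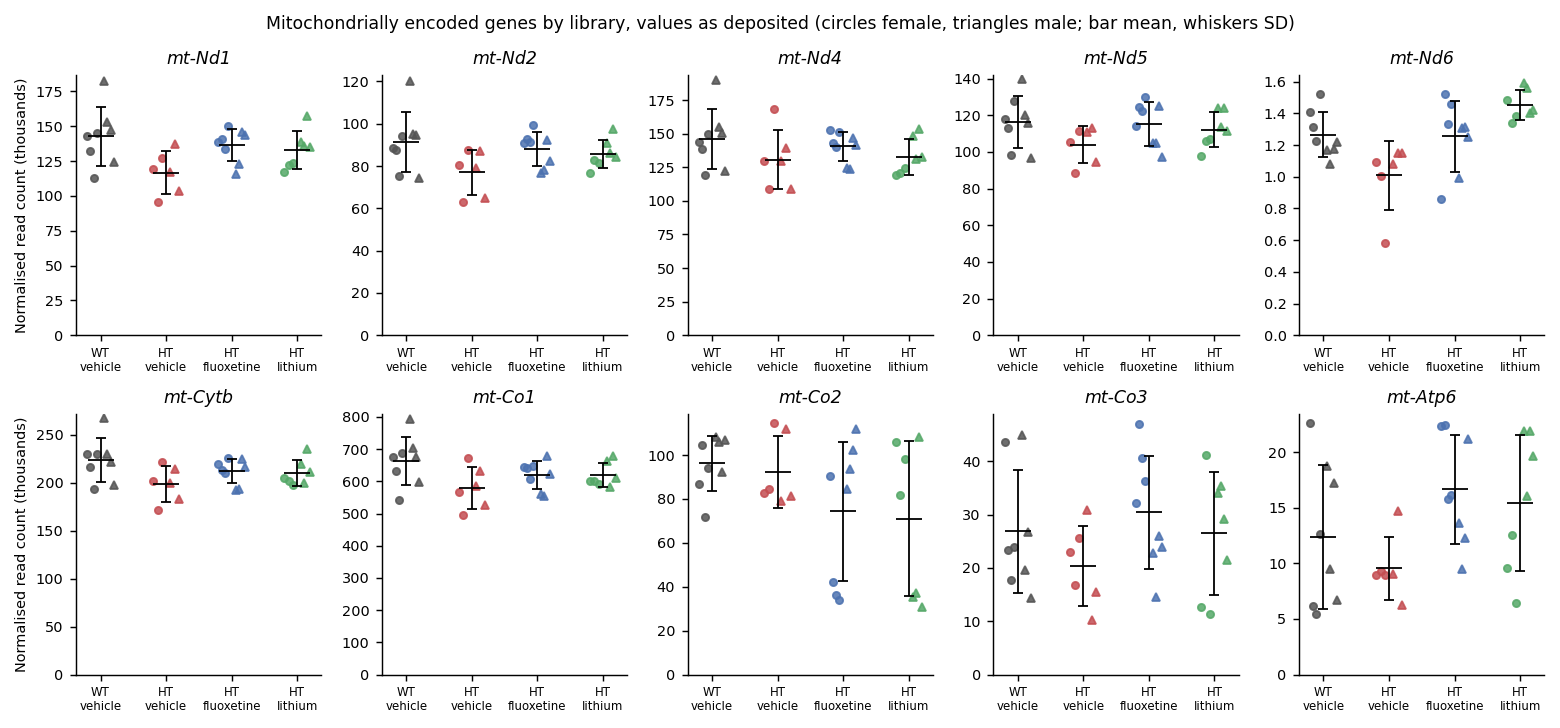
Normalised read count (in units of 1000) for each of the 10 genes, as deposited, by group; each point is 1 library (circles female, triangles male), the bar is the group mean and the whiskers are the SD. mt-Nd6 lay at 1339 or more in HT lithium and at 1149 or less in HT vehicle, and mt-Co2 fell into a low range of 30843 to 42146 in 6 libraries.

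Of the genes read from the heavy strand, those without a full-length copy row moved together from library to library. On log2 values centred on each group of genotype, treatment and sex, the 15 pairs among mt-Nd1, mt-Nd2, mt-Nd4, mt-Nd5, mt-Cytb and mt-Co1 had Pearson r between 0.83 and 0.97. The 21 pairs with mt-Co2, mt-Co3 or mt-Atp6 had r between -0.13 and 0.60 as deposited. With copies added, the same 21 pairs had r between 0.82 and 0.96. These r are descriptions over 29 libraries that share depth and scaling across genes. For mt-Nd6 the 9 values of r with the other members lay between -0.43 and 0.04, or between -0.29 and 0.04 with copies added.

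A fixed pair on either side of the strand difference was tested. Across 29 libraries mt-Nd6 and mt-Nd5 had r = 0.04 (permutation p = 0.837) and Spearman rho = 0.08 (permutation p = 0.665), with 100000 resamples, two-sided. Values adjusted over the 2 relations were the same for this pair. Without the 2 libraries farthest from the median of mt-Nd6 (HT fluoxetine female 1 and HT vehicle female 3) r was 0.12. Without centring on groups r was 0.25 (permutation p = 0.195) and rho was 0.39 (permutation p = 0.0387), so that the rank relation of uncentred values passed 0.05. For mt-Nd5 and mt-Cytb, both from the heavy strand, r was 0.83 and rho 0.80, each with permutation p = 1e-05, the smallest these resamples can give (adjusted p = 2e-05). Without the 2 libraries farthest from the median (WT vehicle males 1 and 4) r was 0.75. The difference between both correlations was not tested.

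**Figure D2:**
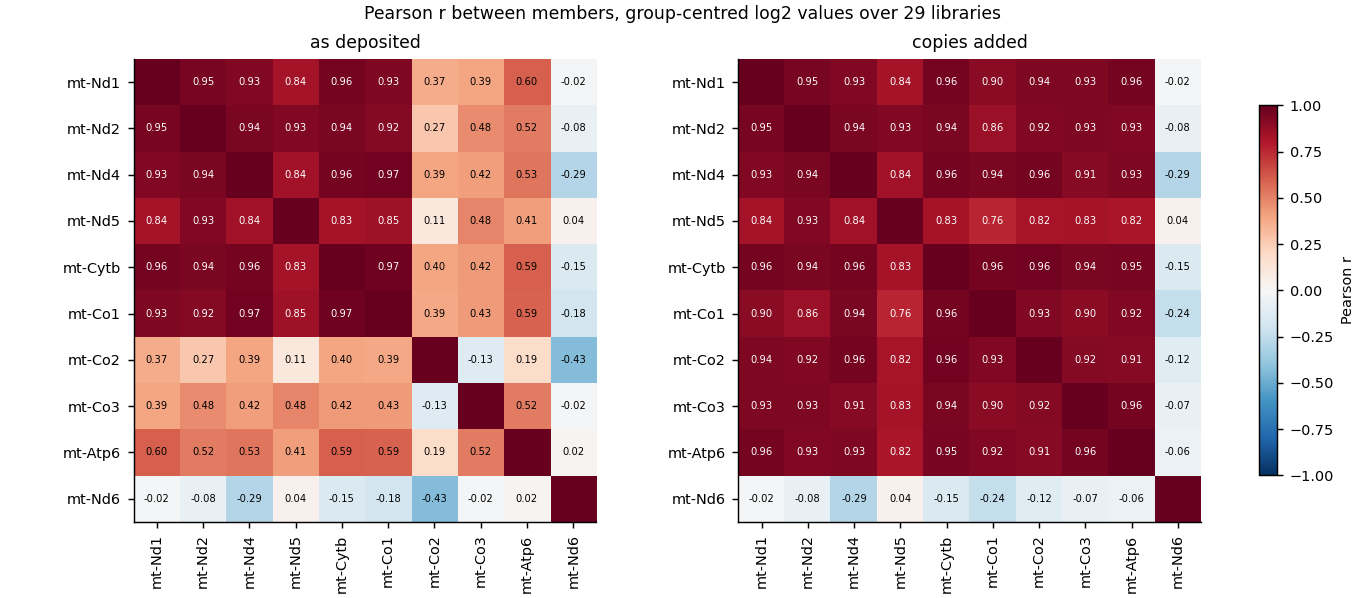
Pearson r between members over 29 libraries on group-centred log2 values, as deposited (left) and with copies added (right). With copies added the 36 pairs of heavy-strand genes lay between 0.76 and 0.96, and the row of mt-Nd6 lay at 0.04 or below.

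Among all other genes with a mean of at least 50 (13807 genes), those most like mt-Nd6 by the same measure were Fam3c (r = 0.83), Rxfp1 (0.78), Me1 (0.75), Canx (0.74) and Smim13 (0.73). Canx encodes the endoplasmic reticulum chaperone calnexin and Me1 the cytosolic malic enzyme. Without HT fluoxetine female 1 and HT vehicle female 3 these r were lower, between 0.53 (Smim13) and 0.61 (Fam3c). Genes most like the mean of the other 9 members, copies added, included Calb1 (0.90), P2ry12 (0.85), Vip (0.85) and Usmg5 (0.85). Calb1 encodes the calcium buffer calbindin, P2ry12 a purine receptor of microglia, Vip a neuropeptide of interneurons and Usmg5 a small subunit of ATP synthase. The best of many r is high by selection, and no p is given.

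The division of reads between gene and copy varied more than the sum. In mt-Co2, which carries the copper centre that takes electrons from cytochrome c, the gene row held 13.7% to 17.9% of the sum of gene and copy in 6 libraries. These were HT fluoxetine females 2, 3 and 4 and HT lithium males 1, 2 and 4. In the other 23 libraries it held 37.7% to 53.5%. mt-Co2 itself lay between 30843 and 42146 in the former and between 71938 and 114607 in the latter, without overlap. Gm28661 lay between 180821 and 206080 in the former and between 92088 and 175054 in the latter. Their sum lay between 218047 and 241602 in the 6 libraries, within the range of 176615 to 283153 of the other 23. Both ranges come from libraries set apart by this same share, so they are descriptions.

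For mt-Co3 the gene row held 4.57% to 19.2% of its sum, and for mt-Atp6 3.98% to 12.9%. In these genes the copy row thus held most of the reads in 29 of 29 libraries. The SD of group-centred log2 values fell from 0.38 to 0.12 for mt-Co2 when the copy was added, from 0.50 to 0.10 for mt-Co3 and from 0.49 to 0.16 for mt-Atp6. Gm29216 was a small part beside mt-Co1, which held 87.8% to 96.8% of the sum, and the SD of mt-Co1 stayed at 0.12.

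**Figure D3:**
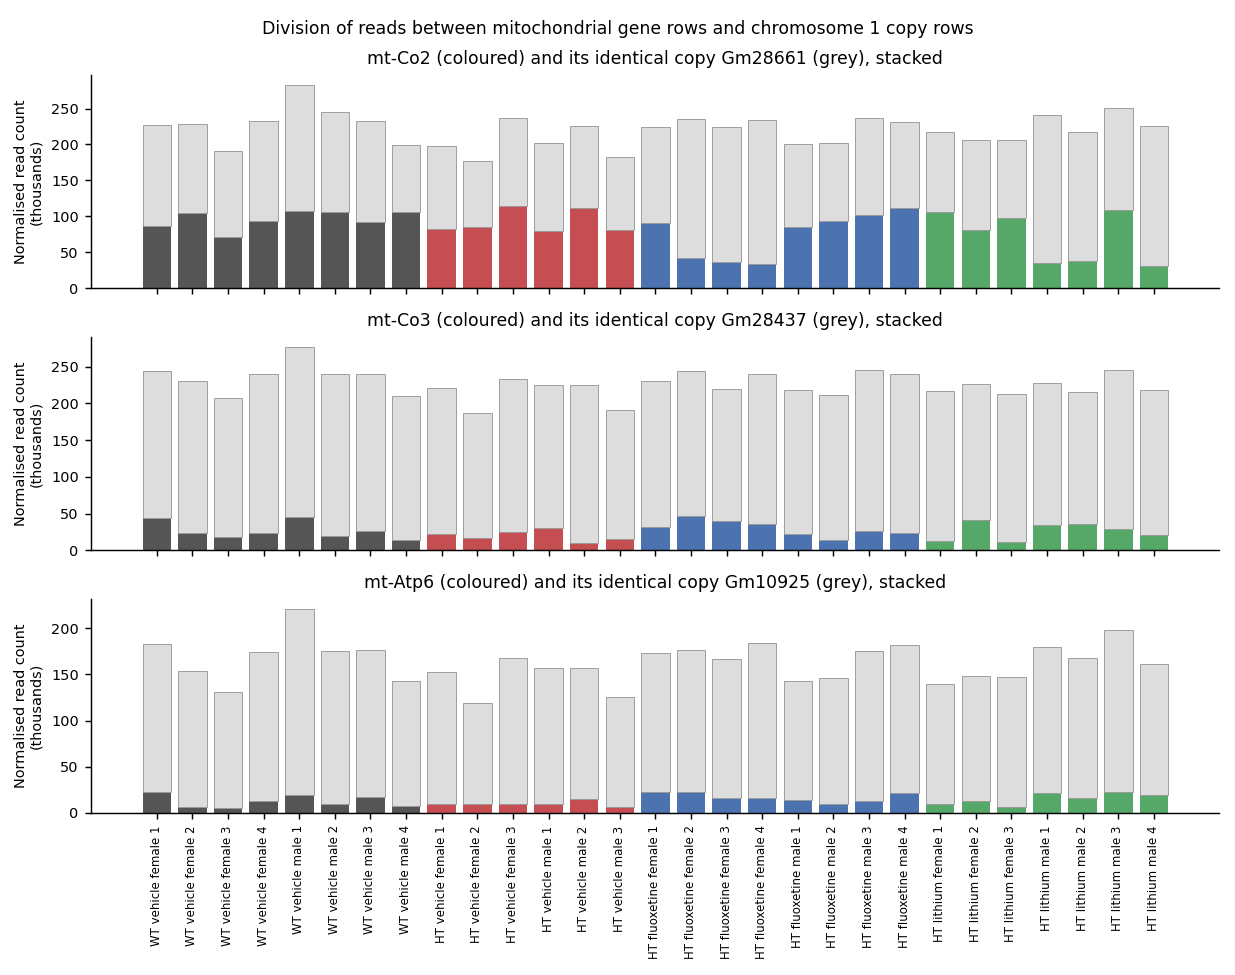
Normalised read count (in units of 1000) of mt-Co2, mt-Co3 and mt-Atp6 (coloured by group) with the identical chromosome 1 copy stacked in grey, 1 bar per library. The coloured part of mt-Co2 is small in 6 libraries of the fluoxetine and lithium groups, while the full bars span 176615 to 283153 over all libraries.

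The comparison of carriers with wild type asked what the Tbr1 allele changes under vehicle. All 10 members were lower in HT vehicle on average, by 0.07 to 0.39 on the log2(value + 1) scale, and 0 of 10 passed the test (limma, adjusted over 17881 genes, threshold 0.05). Over all genes 37 passed, which is 0.207%. Among complex I genes, mt-Nd1 ran from 113094 to 182740 in WT vehicle with a median of 144310, and from 95475 to 137089 in HT vehicle with a median of 118297. The groups overlapped, and the log2 difference was -0.29 ± 0.084 (SE; adjusted p = 0.132). mt-Nd2 differed by -0.24 ± 0.087 (adjusted p = 0.229) and mt-Nd6 by -0.35 ± 0.115 (adjusted p = 0.182), the latter by -0.21 without HT vehicle female 3 (adjusted p = 0.411). mt-Cytb differed by -0.17 ± 0.069 (adjusted p = 0.314) and mt-Co1 by -0.19 ± 0.083 (adjusted p = 0.331). With copies added the differences of the other 9 members lay between -0.29 and -0.14. The median over the 10 was -0.17 with copies added, and that over all genes was 0.00, with 49.9% of all genes negative. The heavy-strand members moved together from library to library, so their shared sign is not a set of separate observations.

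For the genotype, calls moved with the tool or the setting for 1 member, mt-Nd1. DESeq2 on the recovered reads called mt-Nd1 lower in HT vehicle (adjusted p = 0.0294), beside 219 genes over all, and edgeR did not (adjusted p = 0.126). With striatal and olfactory marker means as covariates mt-Nd1 passed in limma (adjusted p = 0.0415), beside 104 genes over all. It also passed without WT vehicle male 4 (limma adjusted p = 0.0451), beside 176 genes over all.

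Under lithium in carriers mt-Nd6 had the largest difference of the members with copies added, and it did not pass by limma. With copies added it also had the largest difference in the genotype and fluoxetine comparisons, which share the HT vehicle libraries. mt-Nd6 lay between 582 and 1149 in HT vehicle, with a median of 1088. In HT lithium it lay between 1339 and 1595, with a median of 1423, so the groups did not overlap. Over all genes 0.542% did not overlap between these groups, 0.352% with HT lithium higher. WT vehicle ran from 1084 to 1522 (median 1223) and HT fluoxetine from 862 to 1522 (median 1312). The log2 difference of HT lithium from HT vehicle was 0.55 ± 0.119 (1.47-fold), with an adjusted p of 0.214 by limma. It was in rank 6 of 17881 genes by p, and no gene passed (0 of 17881, or 0%; 2030 had an unadjusted p under 0.05). Without HT vehicle female 3, the library with the lowest mt-Nd6, the difference was 0.41 (adjusted p = 0.307). DESeq2 called mt-Nd6 higher (0.53, adjusted p = 0.0071) among 32 genes, and edgeR did not (0.53, adjusted p = 0.247).

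The other 9 members showed smaller differences under lithium, and 0 of 9 passed. mt-Nd1 differed by 0.18 ± 0.087, mt-Nd2 by 0.15 ± 0.090, mt-Nd5 by 0.10 ± 0.079 and mt-Nd4 by 0.02 ± 0.094, with adjusted p between 0.445 and 0.963. mt-Cytb differed by 0.08 ± 0.072 and mt-Co1 by 0.09 ± 0.086. The 3 genes with an identical copy row diverged as deposited, mt-Co2 at -0.47 ± 0.222, mt-Co3 at 0.27 ± 0.289 and mt-Atp6 at 0.55 ± 0.283. With copies added they were 0.13 ± 0.079, 0.06 ± 0.069 and 0.14 ± 0.098. The median over all genes was -0.00.

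**Figure D4:**
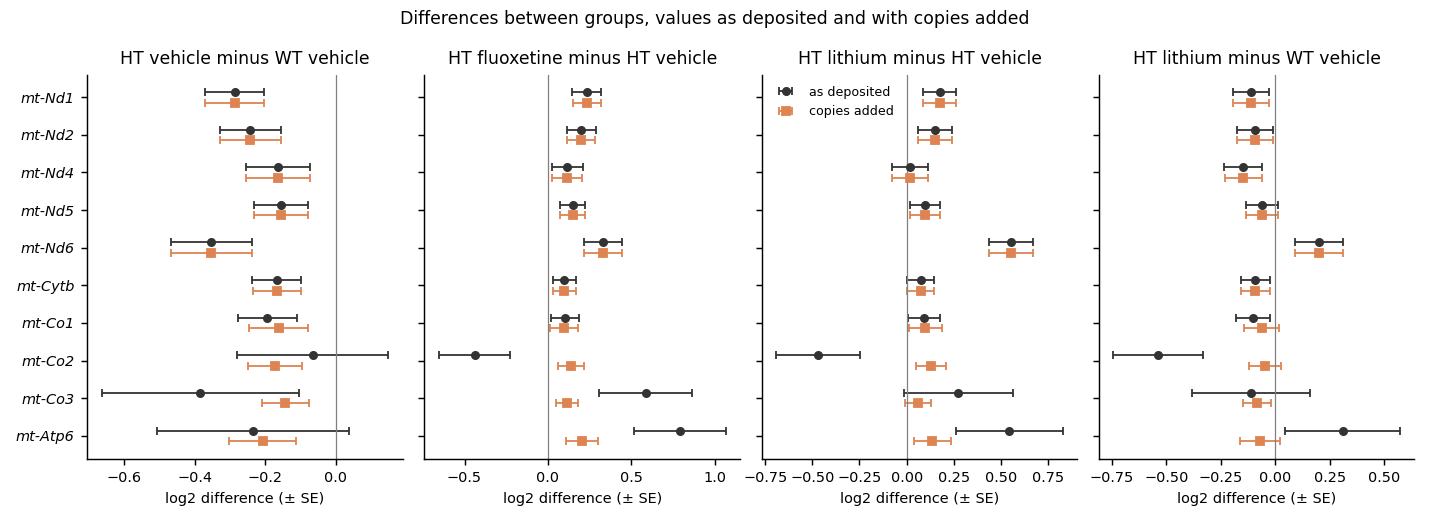
Fitted log2 difference (SE as whiskers) of each member in 4 comparisons, as deposited (circles) and with copies added (squares). mt-Nd6 stands at 0.55 under lithium, the other members with copies added lie between 0.02 and 0.18, and mt-Co2, mt-Co3 and mt-Atp6 move toward the rest when copies are added.

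The ratio of mt-Nd6 to mt-Nd5 compares the only light-strand member with 1 heavy-strand neighbour within a library, where scaling cancels. With 1 gene on the light strand, strand cannot be told apart from other traits of mt-Nd6. Per 1000 normalised reads of mt-Nd5 there were 5.22 to 12.1 of mt-Nd6 in HT vehicle (median 10.3). HT lithium had 11.3 to 15.2 (median 12.8), HT fluoxetine 7.53 to 12.9 (median 11.1) and WT vehicle 8.37 to 12.6 (median 11.8). Ranges overlapped in every comparison with HT lithium, whose lowest library was male 3 and whose highest was female 1. The mean of the female and male log2 differences of HT lithium from HT vehicle was 0.46, or 1.37-fold (exact permutation test within sex over 700 reassignments, two-sided, p = 0.00429, adjusted over 6 comparisons p = 0.0245).

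HT lithium was also above HT fluoxetine, by 0.28 (exact permutation p = 0.0188, adjusted p = 0.0376), and above WT vehicle, by 0.26 (exact permutation p = 0.00816, adjusted p = 0.0245). The other comparisons did not pass. HT vehicle differed from WT vehicle by -0.20 (exact permutation adjusted p = 0.447), HT fluoxetine from HT vehicle by 0.18 (adjusted p = 0.447) and HT fluoxetine from WT vehicle by -0.02 (adjusted p = 0.876). Without HT vehicle female 3 the first of these was -0.023 and the second 0.0038 (exact permutation adjusted p = 0.987 for each). These comparisons share libraries, HT lithium in 3 of them, and are not independent.

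Single libraries weighed on the size and the calls. Without HT vehicle female 3 the lithium difference in the ratio was 0.28 (exact permutation adjusted p = 0.0257). The call was lost without any 1 of HT lithium females 1, 2 or 3 or males 1, 2 or 4, with differences of 0.42 to 0.48 and exact permutation adjusted p between 0.06 and 0.111. Each of these tests allowed fewer reassignments than the 700 of the full test, which raises the smallest possible p. So did the test without HT vehicle female 3, where the call was kept. The part of the number of reassignments in the lost calls was not tested. Leaving out the 8 libraries high in striatal or olfactory markers gave 0.48 (exact permutation adjusted p = 0.0771) and leaves 2 females in HT lithium. This rule takes out high libraries only. It kept HT lithium males 1 and 3, whose olfactory marker means of -1.85 and -2.37 (log2, centred over all libraries) were low. Olfactory markers (13 of 14 in the table) were lower in HT lithium than in HT vehicle, with a summed level of 3851 to 14371 against 6806 to 18044. Striatal markers (15 of 15 in the table, Isl1 at a median of 0) summed to 7082 to 14432 in HT lithium and to 7129 to 8913 in HT vehicle. Genes of RNA without a poly(A) tail (9 of 20 in the table) summed to 1751 to 2278 in HT lithium, to 1902 to 2450 in HT vehicle and to 1858 to 2552 in WT vehicle. The part of tissue makeup and of poly(A) selection in the ratio was not tested beyond these values.

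**Figure D5:**
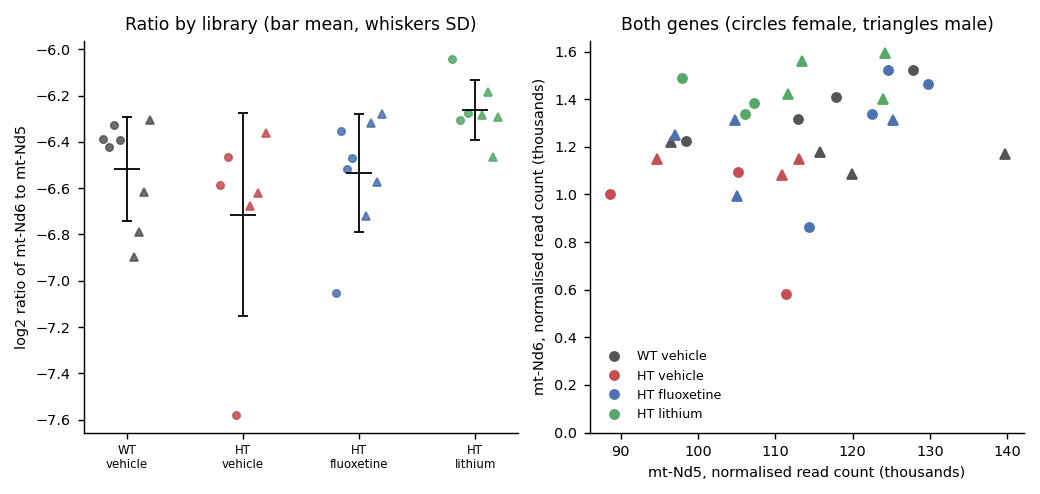
Left, log2 ratio of mt-Nd6 to mt-Nd5 per library by group, with mean (bar) and SD (whiskers); right, normalised read counts of both genes. HT lithium lies between -6.47 and -6.04 on the left, HT vehicle female 3 lies lowest at -7.58, and the uncentred points on the right have r = 0.25 on the log2 scale.

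Fluoxetine in carriers gave 0 of 10 calls, beside 0 of 17881 genes over all (0% by limma; 1397 had an unadjusted p under 0.05 and DESeq2 called 2). mt-Nd6 differed by 0.33 ± 0.115 (adjusted p = 0.478), and by 0.19 without HT vehicle female 3 (adjusted p = 0.745). mt-Nd1 differed by 0.23 ± 0.084 (adjusted p = 0.513) and mt-Nd2 by 0.20 ± 0.087 (adjusted p = 0.595). As deposited, mt-Atp6 stood at 0.79 ± 0.273 and mt-Co2 at -0.44 ± 0.215. With copies added these were 0.21 ± 0.095 and 0.14 ± 0.076, and 10 of 10 members were positive with a median of 0.14, against -0.00 over all genes. Over all genes 52.2% were negative. The heavy-strand members had r between 0.76 and 0.96 with each other, so their shared sign is not a set of separate observations. The genotype, fluoxetine and lithium comparisons share the HT vehicle libraries, where the members with copies added were lowest on average, so opposite signs there are not separate observations.

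Between the drugs, and of treated carriers against wild type, heavy-strand genes differed little with copies added. As deposited they lay between -0.31 and -0.01 for lithium minus fluoxetine. Against WT vehicle they lay between -0.51 and 0.56 for HT fluoxetine and between -0.54 and 0.31 for HT lithium. The mt-Nd6 to mt-Nd5 ratio passed in both comparisons with HT lithium, as given above. For lithium minus fluoxetine 0 of 10 passed (0% over all genes; 626 had an unadjusted p under 0.05, and DESeq2 called 2). The differences with copies added lay between -0.10 and 0.00 for the heavy-strand genes and at 0.23 ± 0.111 for mt-Nd6. For HT fluoxetine minus WT vehicle 0 of 10 passed, beside 0.19% of genes, and with copies added members lay between -0.07 and -0.00. For HT lithium minus WT vehicle 0 of 10 passed, beside 1.9% of genes. In that comparison the heavy-strand genes with copies added lay between -0.15 and -0.05, and mt-Nd6 at 0.20 ± 0.111 (adjusted p = 0.328). mt-Nd6 passed when only the groups compared were fitted (limma adjusted p = 0.043). Across the settings of this comparison the genes called over all ran from 42 to 1174. For mt-Nd5 the 95% interval of the HT lithium minus WT vehicle difference was -0.21 to 0.09.

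By sex, mt-Co2 passed as deposited and not with its copy added. Its female minus male difference in lithium minus fluoxetine was 2.12 ± 0.414 (adjusted p = 0.0151; 0.593% of genes passed). With Gm28661 added the same difference was -0.24 ± 0.147 (adjusted p = 0.519). In males alone mt-Co2 was lower in HT lithium than in WT vehicle by 1.17 (log2 difference -1.17 ± 0.281, adjusted p = 0.0257; 3.46% of genes passed). With the copy added that difference was -0.03 ± 0.10 (adjusted p = 0.892). mt-Nd6 differed under lithium by 0.70 ± 0.174 in females and 0.41 ± 0.162 in males, and the difference between the sexes did not pass (0.30 ± 0.238, adjusted p = 0.9997; 0% of genes passed). For the genotype mt-Nd6 differed by -0.66 ± 0.162 in females (adjusted p = 0.203) and by -0.05 ± 0.162 in males (adjusted p = 0.946), a difference of -0.62 ± 0.230 between the sexes that did not pass (adjusted p = 0.847). Under fluoxetine it differed by 0.55 ± 0.162 in females (adjusted p = 0.175; 0.028% of genes passed) and by 0.10 ± 0.162 in males (adjusted p = 0.845). The female HT vehicle group holds the library with the lowest mt-Nd6. In wild type, 0 of 10 members differed between the sexes (0.252% of genes passed).

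Nuclear genes for the same complexes did not pass in any comparison. Of 71 tested (36 of complex I, 9 of complex III, 11 of complex IV and 15 of ATP synthase), 0 were called in each of 6 comparisons. Over all genes the share called ran from 0% to 1.9% by comparison, so few or no calls are usual for lists of this size. Under lithium 42 were positive and 29 negative, and the medians of the 4 lists lay between -0.00 and 0.02. For the genotype 40 were positive and 31 negative, with list medians from 0.00 to 0.06. These lists stand beside the members only for their counts.

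Of 19 genes for mtDNA transcription and replication, 0 passed in any comparison, beside 0% to 1.9% of all genes by comparison. Polrmt, the mitochondrial RNA polymerase, differed by 0.16 ± 0.041 in HT vehicle against WT vehicle (adjusted p = 0.0878) and by -0.15 ± 0.043 under lithium (adjusted p = 0.249). Tfam, which packs mtDNA and starts its transcription, differed by 0.15 ± 0.045 under lithium (adjusted p = 0.261). Of 20 genes for mitochondrial RNA processing and stability 0 passed. Slirp differed by -0.16 ± 0.060 under lithium (adjusted p = 0.337), and its partner Lrpprc by 0.02 ± 0.049 (adjusted p = 0.921). In HT lithium against WT vehicle Slirp differed by -0.19 ± 0.056 (adjusted p = 0.0752). Grsf1, which binds G-rich RNA of the light strand, differed by 0.04 ± 0.038 under lithium. Pnpt1 and Supv3l1, which degrade mitochondrial RNA, differed by -0.08 ± 0.058 and -0.04 ± 0.040, and Fastk, an RNA-binding protein known to act on ND6, by -0.02 ± 0.038, with adjusted p between 0.614 and 0.887 for these 4 genes. The 12 regulators of mitochondrial biogenesis also gave 0 calls in each of the 6 comparisons, beside the same shares of all genes.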

How the data were processed

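The authors deposited a normalised signal per gene and library: read counts that had been scaled by a single factor for each library, a reading taken from the values themselves. Dividing by that step gave whole reads for 100% of values (tolerance 0.0001), and these recovered reads were used in count tests. The submitters' processing notes list Salmon 0.11.2, R 3.6.0, DESeq2 1.19.11 and GRCm38, with no role or order. The labels' protocols name a TruSeq Stranded mRNA kit. Annotation release, strand setting and gene filter are not given in the sources used here. Of 18240 identifiers, 18227 matched GENCODE names on GRCm38.

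The 17881 genes that reached 10 in 3 or more libraries were transformed to log2(value + 1) and fitted with limma 3.58.1 (R 4.3.3), using a separate mean for each combination of genotype, treatment and sex, an intensity trend and Benjamini-Hochberg adjustment over all genes, threshold 0.05. Folds are on this scale. Differences are the mean of the female and male difference. The mt-Nd6 to mt-Nd5 ratio was tested by exact permutation within sex. Alternatives were other scalings, pseudocounts, filters, covariates, left-out libraries, count tests by edgeR 4.0.16 and DESeq2 1.42.0 and, chosen after seeing the data, adding copies that share at least 50% of their 25-base words with a member and have a mean above 1000. Named genes were the members, Tbr1, up to 4 genes per list by smallest p, 6 fixed RNA-processing genes and the 5 genes most alike by r. One of the genes most alike is not reported here. The fit was tested on simulated data. The members and lists were chosen with earlier results of these data known.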

Additional observations from a re-analysis of the deposited data

Results flagged for a closer look

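Among 64 groups of 4 to 10 libraries, 2 values stood far from the others of their group, no more than the about 1 in 20 that chance gives. Both come from HT vehicle female 3 and contain its mt-Nd6, so they are not independent. Its mt-Nd6 was 582, the lowest of 6, and its log2 ratio of mt-Nd6 to mt-Nd5 was -7.58, while its mt-Nd5 of 111435 was within the range of that group. As deposited, the lithium minus fluoxetine difference of mt-Co2 differed between the sexes by 2.12 (female minus male, log2, limma adjusted p = 0.0151). The division between mt-Co2 and Gm28661 moved in the same libraries, and with Gm28661 added mt-Co2 did not pass.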

How the results depend on the processing

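Over 48 settings, 2873 of 2880 values of a member in a comparison kept their side of the threshold. The number of members called was 0 in all but 7 of 294 counts. For the genotype it was 1 (mt-Nd1) with marker covariates and with DESeq2, and 0 to 1 on leaving out single libraries. Under lithium it was 1 (mt-Nd6) with library weights (limma adjusted p = 0.0441, 13 genes over all) and with DESeq2 (32 genes over all). For lithium carriers against wild type it was 1 (mt-Nd6) when only the groups compared were fitted. Leaving out single libraries there gave 0 to 1 (mt-Co2 without HT lithium male 3, limma adjusted p = 0.0191, beside 175 genes over all). Genes called over all ranged from 2 to 219 for the genotype (reported 37), from 0 to 32 for lithium (reported 0), from 0 to 2 for fluoxetine and for lithium minus fluoxetine (reported 0), from 0 to 98 for fluoxetine carriers against wild type (reported 34) and from 42 to 1174 for lithium carriers against wild type (reported 340).

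The female minus male call of mt-Co2 gave 0 with copies added, and 0 to 1 on leaving out single libraries (0 without HT lithium female 1 or male 2). The male call of mt-Co2 in lithium carriers against wild type was lost with marker covariates, without the marker-high libraries and without any 1 of HT lithium males 1, 2 and 4 and WT vehicle males 1, 2 and 3. Without HT lithium male 3 there were 2 male calls, the other being mt-Co2 in lithium minus fluoxetine. Without HT fluoxetine female 1 there were 2 female calls under fluoxetine, mt-Co2 and mt-Nd6. Genes called over all are not given for these refits by sex. With all libraries, 3.46% of genes passed in males for lithium carriers against wild type, and 0.028% in females under fluoxetine. The share of reads was 6.99% with copies added, by construction.

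The lithium minus fluoxetine ratio was 0.25 with mt-Cytb (adjusted p = 0.0776) and 0.23 with mt-Co1 (adjusted p = 0.104) in place of mt-Nd5, no longer passing; the cause was not tested. Without the 8 marker-high libraries the ratio was 0.48 for lithium, 0.23 for lithium minus fluoxetine and 0.30 for lithium carriers against wild type. None passed. Fewer libraries allow fewer reassignments, whose part in the lost calls was not tested. Leaving out single libraries gave 0.28 to 0.56 for lithium, 0.20 to 0.32 for lithium minus fluoxetine (lost without any 1 of HT lithium females 1, 2, 3 or males 1, 2, 4 or HT fluoxetine males 1, 3) and 0.22 to 0.32 for lithium carriers against wild type (lost without HT lithium female 1 or males 1, 2, 4). The correlation of mt-Nd5 with mt-Cytb was -0.35 under quantile normalisation, which fixes the values of the highest ranks.

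Replicate numbers of the sample titles showed no pairing of libraries (median r of deviations -0.01 over 94 pairs with the same number and 0.00 over 273 with different numbers). In HT vehicle females these numbers differ from those in the library names. The check and the block therefore cannot exclude a pairing by library name. With the replicate block the lithium ratio was 0.44 and the number of members called was 0 in all 6 comparisons. The block moved the genes called over all to 82 for the genotype and to 63 for fluoxetine carriers against wild type.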
